A study of Mus musculus with 6 samples.

Results

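The 10 genes described here encode ligands, receptors and signal transducers of the transforming growth factor beta (TGF-β) and activin pathway: Tgfb1, Tgfb2, Tgfb3, Inhba, Ltbp1, Tgfbr1, Tgfbr2, Acvr1, Smad3 and Smad7. They were chosen by name from the deposited gene table, which held 41386 genes, and all 10 were found and passed the filter on low counts that left 18569 genes for testing. The data were RNA-seq read counts of mouse hippocampus in 3 ischemia/reperfusion (I/R) libraries and 3 sham libraries. All mice were 56 days old and of the strain C57BL/6 by the labels, given as C57BL/6J in the methods. In the I/R group the left middle cerebral artery was occluded with a filament for 1.5 h and blood flow was then restored for 24 h, and the sham group had the same surgery without a filament. The hippocampus of the operated side was taken, and each replicate was a pool of 3 hippocampi, so replicate error here is the variation among pools.

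TGF-β ligands are secreted in a latent form, and latent TGF-β binding proteins tether them in the matrix until they are released. Active ligand binds a type II receptor kinase, which phosphorylates a type I receptor, and the type I receptor phosphorylates Smad2 and Smad3. These Smads enter the nucleus with Smad4 and induce target genes, among them the inhibitor Smad7. In the brain TGF-β1 is known to keep microglia in their resting state, and activin A is known as an injury-induced factor of neurons.

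After I/R, 6 of the 10 genes were higher and 2 were lower. Inhba rose the most of the 10, from 5.44 ± 0.430 to 32.5 ± 14.3 CPM (mean ± SD, n = 3 libraries per group), a fold of 5.97 between the means. Tgfb1 followed with a fold of 3.30, from 6.06 ± 0.851 CPM in sham. Ltbp1, Tgfbr2, Smad7 and Acvr1 also rose, while Tgfb2 and Smad3 fell by a small amount and Tgfb3 and Tgfbr1 did not pass the test. CPM is a gene's count scaled to a common library size, after TMM normalization. Calls needed both an edgeR adjusted p below 0.05 and a change of more than 1.2 times up or down. Of all 18569 genes tested, 41.8% were called, 21.8% higher and 19.9% lower in I/R. The median log2 fold change was 0.63 over the 10 genes and 0.03 over all genes tested. Whether the smaller changes were called depended on scaling: with library size only, which moved the median of all genes to 0.28, 7 of the 10 genes were higher and 0 were lower, against 34.1% and 10.9% of all genes.

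**Figure D1:**
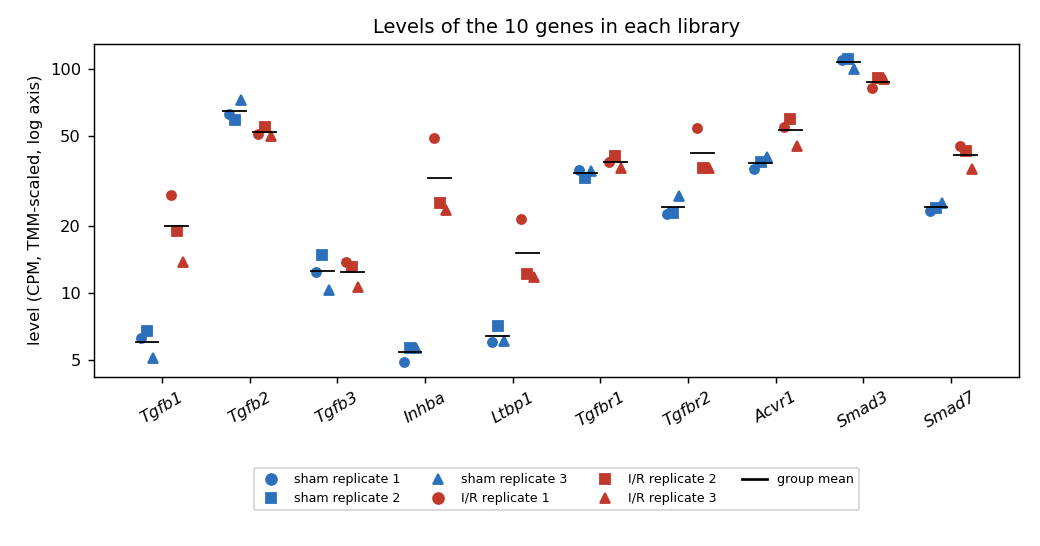
Level of each of the 10 genes (CPM scaled by TMM, log axis) in the 3 sham libraries (blue) and the 3 I/R libraries (red), with marker shape giving the replicate number and a black line the group mean. I/R replicate 1 stands above the other I/R libraries for Tgfb1, Inhba, Ltbp1 and Tgfbr2, whereas the sham libraries of these genes lie closer together. For Tgfb2 and Tgfb3 the sham libraries spread more than the I/R libraries.

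The total count was 37493042 to 44788547 per library, so 3 counts corresponded to 0.0659 to 0.0872 CPM. Every one of the 10 genes had at least 176 counts in every library, well above that floor. The neuron markers and the hippocampal neuron markers were expressed in all libraries, as the labelled tissue requires, but their summed level was 10300 to 10400 and 891 to 928 CPM in sham and 1800 to 4420 and 234 to 509 CPM in I/R. I/R replicate 1 had the lowest neuronal level and the highest neutrophil level of the 6 libraries. In bulk tissue, fewer cells of a type and less RNA per cell cannot be told apart. Choroid plexus markers differed between libraries of the same group, at 32.6 and 36.4 CPM in I/R replicate 3 and sham replicate 1 and at 1590 to 4400 CPM in the others.

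The promoters of 4 genes are shown so that the ligand genes that rose (Inhba and Tgfb1) and the latency gene Ltbp1 can be set beside Tgfb2, which did not rise. Each window covers 250 bases before to 50 bases after a start site, from RefSeq on GRCm38.p6, 5′ to 3′ on the gene's strand. Capitals mark matches, on either strand, to any of 6 motifs whose letters and frequencies are given after the sequences.
Inhba, chr13:16011601-16011900, plus strand: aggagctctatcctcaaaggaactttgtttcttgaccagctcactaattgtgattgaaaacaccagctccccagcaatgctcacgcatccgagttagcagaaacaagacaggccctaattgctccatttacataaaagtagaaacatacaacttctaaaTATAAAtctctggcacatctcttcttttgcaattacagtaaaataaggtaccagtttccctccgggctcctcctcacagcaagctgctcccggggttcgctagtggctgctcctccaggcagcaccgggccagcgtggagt
Tgfb1, chr7:25686752-25687051, plus strand: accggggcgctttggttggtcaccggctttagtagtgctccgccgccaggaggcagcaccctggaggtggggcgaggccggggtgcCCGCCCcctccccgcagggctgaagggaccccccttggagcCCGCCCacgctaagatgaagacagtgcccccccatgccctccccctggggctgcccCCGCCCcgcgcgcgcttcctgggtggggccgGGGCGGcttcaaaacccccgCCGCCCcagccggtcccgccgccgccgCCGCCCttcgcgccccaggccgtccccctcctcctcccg
Ltbp1, chr17:75005279-75005578, plus strand: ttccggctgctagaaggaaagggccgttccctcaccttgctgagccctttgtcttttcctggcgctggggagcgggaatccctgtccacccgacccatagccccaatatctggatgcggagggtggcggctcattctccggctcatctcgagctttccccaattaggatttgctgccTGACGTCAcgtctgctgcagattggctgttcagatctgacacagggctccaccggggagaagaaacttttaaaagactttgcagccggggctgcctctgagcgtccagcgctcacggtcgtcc
Tgfb2, chr1:186705940-186706239, minus strand: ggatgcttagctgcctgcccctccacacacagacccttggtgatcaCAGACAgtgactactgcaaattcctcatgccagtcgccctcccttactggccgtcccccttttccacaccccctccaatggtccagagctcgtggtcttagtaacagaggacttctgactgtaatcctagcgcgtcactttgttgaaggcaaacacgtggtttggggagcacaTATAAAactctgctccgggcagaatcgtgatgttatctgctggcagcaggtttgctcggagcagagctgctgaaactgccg

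The 4 windows differed in composition. The Tgfb1 window was 77.0% G or C and held 6 GC boxes and no TATA box, whereas the Inhba window was 47.7% G or C and held a TATA box that began 91 bases before the start. The Tgfb2 window was 54.3% G or C, with a TATA box at position -31 and a Smad box at position -204. The Ltbp1 window shown held a CRE at position -73, and its other listed start, at chr17:75178531-75178830, held 2 Smad boxes. The TATA box was searched as TATAAA, which 13.6% of the 32851 promoter windows of the reference held. The GC box was searched as GGGCGG and was found in 35.7% of all windows. The Smad box was searched as CAGACA, with a share of 21.0%, and the longer Smad palindrome as GTCTAGAC, with a share of 0.213%. The AP-1 site, TGACTCA, was in 5.20% of windows. The cyclic AMP response element (CRE), TGACGTCA, was in 1.79%. None of these motifs contains another. Windows were found for 8 of the 10 genes and none of their 10 windows held the AP-1 site or the palindrome; Tgfb3 and Smad7 had no entry. A match describes letters in the window and not a site in use.

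Among the ligands, Inhba encodes the βA subunit of inhibins and activins, and its homodimer is activin A. Its coordinates on the BALB/cJ assembly, which the table uses, are chromosome 13, 12836177 to 12851680 (MGP_BALBcJ_G0020192). Its level was 49.0, 25.1 and 23.4 CPM in I/R replicates 1, 2 and 3 and 4.94, 5.71 and 5.67 CPM in sham. Even the lowest I/R library was far above the highest sham library. The log2 fold change came to 2.58 ± 0.29 (SE; edgeR, adjusted p = 0.000758), higher than that of 97.2% of all genes tested. I/R replicate 1 held 2.02 times the mean of the other I/R libraries, and leaving that library out gave 2.15.

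Tgfb1 encodes the TGF-β isoform made by microglia, macrophages and platelets (chromosome 7, 23801276 to 23819962, MGP_BALBcJ_G0031860). Its level was 27.3, 19.0 and 13.7 CPM after I/R against 6.30, 6.77 and 5.12 CPM after sham surgery. The groups did not overlap, and the I/R libraries spread more widely than sham. On the log2 scale I/R differed from sham by 1.72 ± 0.25 (SE; edgeR, adjusted p = 0.00183), and by 1.42 without I/R replicate 1, which held 1.67 times the mean of the other I/R libraries.

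Tgfb2, an isoform of neurons and astrocytes (chromosome 1, 186172886 to 186260740, MGP_BALBcJ_G0016856), was at 51.3, 54.9 and 50.1 CPM after I/R against 63.1, 59.1 and 73.0 CPM after sham surgery. Each I/R library was lower than every sham library, by a small margin. By edgeR the log2 change was -0.32 ± 0.10 (SE; adjusted p = 0.0348). It was -0.06 with library size only (edgeR, adjusted p = 0.643), and the call was also lost without sham replicate 3, at -0.24 (edgeR, adjusted p = 0.131), without sham replicate 1 (0.0744) and without I/R replicate 3 (0.0689). Adjusted p ranged from 0.0147 to 0.708 over 17 alternatives, so this fall was not stable to the processing. Neuron markers moved the same way, and their part in the result was not tested.

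Tgfb3 (chromosome 12, 83908123 to 83929942, MGP_BALBcJ_G0019904), the third isoform, was at 13.7, 13 and 10.6 CPM after I/R against 12.4, 14.8 and 10.3 CPM after sham surgery. The groups overlapped. The edgeR log2 change was -0.01 ± 0.17 (SE; adjusted p = 0.970) and its sign changed with the scaling. Tgfb3 overlaps the end of Ttll5 on the opposite strand. Ttll5 had 1056 to 1666 counts per library, and whether the counting used strand is not stated, so the level of Tgfb3 is uncertain.

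Because library scaling moved the smaller changes, the isoforms were also compared within each library, where scaling cancels. The log2 ratio of Tgfb1 to Tgfb2 counts was -0.91, -1.53 and -1.87 after I/R, compared with -3.32, -3.12 and -3.83 after sham surgery. The difference of 1.99 between the group means was 1.72 without I/R replicate 1. The deposited FPKM gave the same difference, which is no separate check because they were computed from these counts and a gene length. The log2 ratio of Tgfb1 to Tgfb3 was -1.04 ± 0.0795 in sham and 0.63 ± 0.324 in I/R (SD, n = 3 each), a difference of 1.67. In neither ratio did the groups overlap (exact permutation test, two-sided, p = 0.1, which is the lowest value for 3 against 3, and 0.1 after Benjamini-Hochberg adjustment over 5 ratios), so these differences cannot reach a threshold of 0.05.

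On a per-length scale, Tgfb1 made up 43.0%, 33.6% and 29.1% of the reads of the TGF-β ligand genes in I/R and 13.3%, 14.2% and 10.3% in sham, with the length listed in the table. Tgfb2 was the most abundant isoform in all sham libraries, at 62.2% to 73.9%, and in I/R replicates 2 and 3, while in I/R replicate 1 it held 40.6%. With the shorter lengths behind the deposited FPKM, the mean share of Tgfb1 was 32.8% ± 7.21 in I/R and 11.2% ± 2.16 in sham, and Tgfb2 was then first in every library. The share of Tgfb3 was 17% ± 0.565 in I/R and 19.8% ± 3.90 in sham with the listed length, and the groups overlapped.

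**Figure D2:**
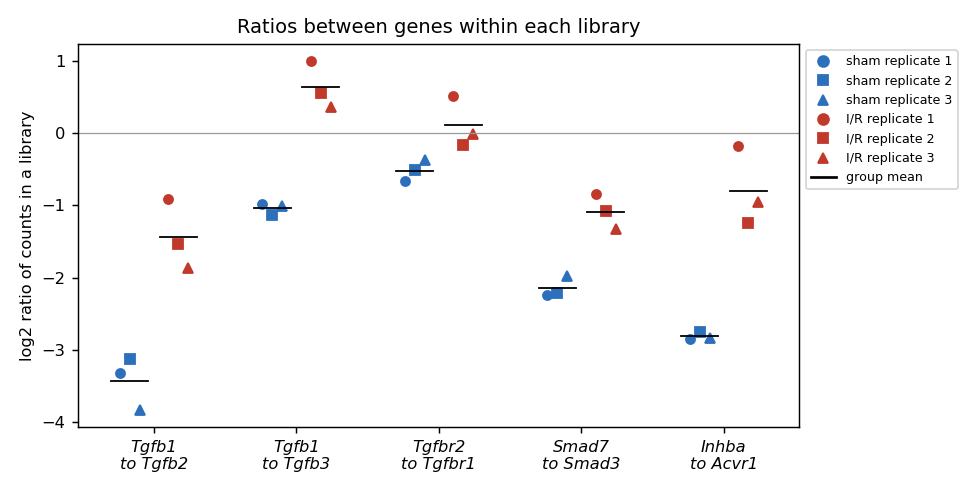
Log2 ratio of counts between paired genes within each library, for sham (blue) and I/R (red), with marker shape giving the replicate number and black lines the group means. In all 5 ratios every I/R library lies above every sham library. Tgfb1 has more counts than Tgfb3 in I/R (mean of 0.63) and fewer in sham (mean of -1.04). Counts are not corrected for gene length. With the lengths behind the deposited FPKM, the mean share of Tgfb1 in sham is 11.2% against 8.44% for Tgfb3.

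Ltbp1 encodes a matrix protein that binds latent TGF-β (chromosome 17, 75178078 to 75577069, MGP_BALBcJ_G0023992). Its level was 21.4, 12.2 and 11.8 CPM after I/R against 6.02, 7.11 and 6.13 CPM after sham surgery, without overlap. On the log2 scale I/R differed from sham by 1.24 ± 0.25 (SE; edgeR, adjusted p = 0.00563), and by 0.90 without I/R replicate 1. The other genes of latency and activation were described as a list of 11, of which 9 were tested. Of these, 5 were higher and 0 were lower, a share of 55.6% against 41.8% of all genes, with a median log2 fold change of 0.78. Thbs1, which encodes the latent TGF-β activator thrombospondin 1, had the largest rise of the list, from 3.77 ± 1.36 to 45.7 ± 23.4 CPM (log2 change 3.61 ± 0.40 SE). Lrrc32, which encodes the membrane anchor GARP for latent TGF-β, rose from 3.42 ± 0.270 to 40.1 ± 17.6 CPM (3.55, SE 0.34). On a log2 scale Ltbp2 rose by 3.0 (SE 0.44) and Mmp14, a membrane-bound matrix protease, by 0.98 (SE 0.16). Itgb8, whose integrin activates latent TGF-β on glia, did not pass, at 62.6 ± 10.2 CPM after I/R against 75.5 ± 9.45 CPM after sham surgery.

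The receptors differed from one another. Tgfbr2, the type II receptor for TGF-β (chromosome 9, 114063995 to 114154443, MGP_BALBcJ_G0035376), was at 54.7, 36.3 and 36.1 CPM after I/R against 22.5, 22.8 and 27.0 CPM after sham surgery. The groups did not overlap, and the log2 fold change came to 0.82 ± 0.18 (SE; edgeR, adjusted p = 0.00824), or 0.59 without I/R replicate 1. Tgfbr1, its type I partner (chromosome 4, 44132419 to 44193653, MGP_BALBcJ_G0028246), was at 38.4, 40.7 and 36.3 CPM after I/R against 35.4, 32.5 and 35.2 CPM after sham surgery. Its libraries were separated by a small margin and the change did not pass, with a log2 fold change of 0.16 and an SE of 0.09 (edgeR, adjusted p = 0.187). With library size only it was 0.42 and was called (edgeR, adjusted p = 0.0105). The log2 ratio of Tgfbr2 to Tgfbr1 within a library was 0.51, -0.17 and -0.01 after I/R, compared with -0.66, -0.51 and -0.38 after sham surgery, a difference of 0.63, or 0.43 without I/R replicate 1 (exact permutation test, two-sided, p = 0.1, its lowest value here).

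Acvr1 encodes ALK2, a type I receptor used by bone morphogenetic proteins (BMPs) that also binds activin (chromosome 2, 55815538 to 55996385, MGP_BALBcJ_G0025720). Its level was 55.3, 59.5 and 45.5 CPM after I/R against 35.6, 38.6 and 40.5 CPM after sham surgery, with no overlap. The edgeR log2 change was 0.48 ± 0.12 (SE; adjusted p = 0.0128). The call was lost without I/R replicate 2 (edgeR, adjusted p = 0.0514) and without sham replicate 1 (0.0586) or 2 (0.0511). Over 17 alternatives its adjusted p lay between 0.00268 and 0.0586. The log2 ratio of Inhba to Acvr1 was -0.18, -1.25 and -0.96 after I/R, compared with -2.85, -2.75 and -2.83 after sham surgery, a difference of 2.02, or 1.71 without I/R replicate 1 (exact permutation test, two-sided, p = 0.1, its lowest value here).

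Of 7 other receptors and co-receptors, all tested, 2 were higher and 1 was lower, a share of 42.9% that is near the 41.8% of all genes, with a median log2 fold change of -0.26. Without I/R replicate 1, 3 were higher and 2 were lower, where 4010 and 3966 of all 18739 genes tested were. The genes that rose encode receptors of the endothelium. Acvrl1, which encodes ALK1, rose from 14.7 ± 2.04 to 56.1 ± 28.1 CPM (log2 change 1.93 ± 0.32 SE), and Eng, which encodes endoglin, rose from 21.8 ± 1.97 to 75.4 ± 31 CPM (1.79, SE 0.26). The summed level of 6 endothelium markers was 335 to 502 CPM after I/R against 245 to 249 CPM after sham surgery. Of these markers 5 were higher and 1 was lower, where 21.8% and 19.9% of all genes were. The part of the endothelium in these rises was not tested. Acvr1b, which encodes the activin type I receptor ALK4, was lower, at 88.0, 106 and 119 CPM after I/R against 182, 187 and 184 CPM after sham surgery. Its log2 fold change came to -0.82 (SE 0.12, edgeR, adjusted p = 0.00160). Its call held in all 17 alternative fits under the same call rule, but not with a fold change over 2. The activin type II receptor genes Acvr2a and Acvr2b did not pass, with log2 fold changes of -0.26 (SE 0.10) and -0.57 (SE 0.21).

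Smad3 transduces TGF-β and activin signals to the nucleus (chromosome 9, 60881623 to 60992932, MGP_BALBcJ_G0034905). It was at 82.1, 91.5 and 90.0 CPM after I/R against 110, 111 and 99.7 CPM after sham surgery, with the I/R libraries below the sham libraries. By edgeR the log2 change was -0.28 ± 0.09 (SE; adjusted p = 0.0300), just beyond the limit for a call. It was -0.03 with library size only (edgeR, adjusted p = 0.785), and the call was lost in 11 of 17 alternatives, among them those without I/R replicate 1 and without any of the sham replicates in turn. Adjusted p ranged from 0.00944 to 0.831.

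Smad7, the inhibitory Smad that blocks type I receptors (chromosome 18, 72939702 to 72968785, MGP_BALBcJ_G0024531), was at 45.5, 43.2 and 35.7 CPM after I/R against 23.2, 24.0 and 25.3 CPM after sham surgery. The libraries of the groups were well apart and close within each group. On the log2 scale I/R differed from sham by 0.78 ± 0.11 (SE; edgeR, adjusted p = 0.00174), and by 0.71 without I/R replicate 1. The log2 ratio of Smad7 to Smad3 within a library was -0.85, -1.08 and -1.33 after I/R, compared with -2.24, -2.21 and -1.98 after sham surgery, a difference of 1.05 (exact permutation test, two-sided, p = 0.1, its lowest value here). Of the 6 other Smad genes, 3 were higher and 1 was lower, a share called of 66.7% against 41.8% of all genes. With library size only 5 were higher and 0 were lower, where 34.1% and 10.9% of all genes were. The higher genes were Smad6, the inhibitor of BMP signals (log2 change 1.21 ± 0.33 SE), and the BMP transducers Smad1 (0.73, SE 0.13) and Smad5 (0.56, SE 0.09), while the BMP transducer Smad9 was lower (-0.58, SE 0.16). Smad9 lost its call in 6 of 17 alternatives, among them those without each sham replicate in turn (edgeR, adjusted p = 0.0626, 0.0804 and 0.0619). Smad6 lost its call without I/R replicate 2 (edgeR, adjusted p = 0.0599) and without sham replicate 2 (0.0543). Smad2 and Smad4 did not pass, at 0.21 (SE 0.11) and 0.23 (SE 0.10).

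**Figure D3:**
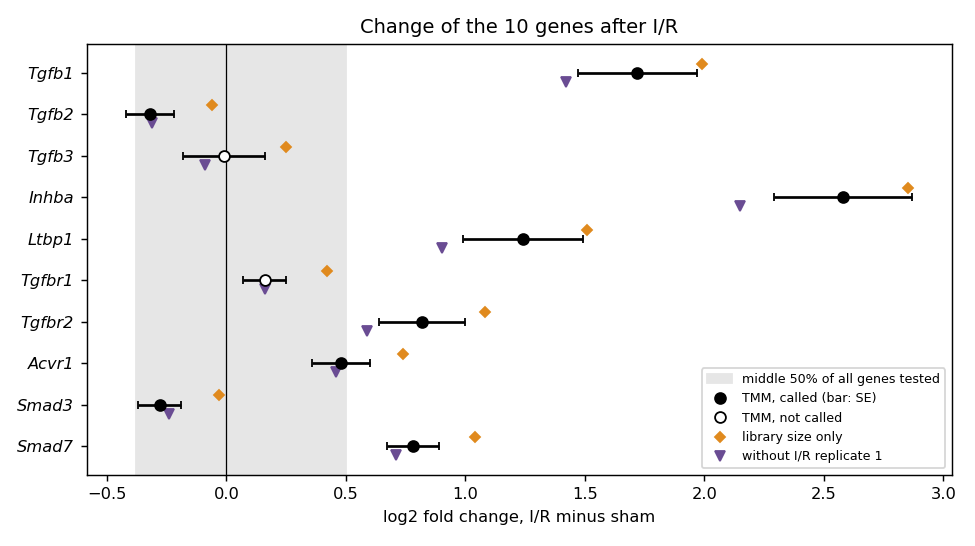
Log2 fold change of I/R against sham for the 10 genes (circles with SE bars, filled where called), with the value under library size only (diamonds) and without I/R replicate 1 (triangles); the grey band holds the middle 50% of all genes tested, -0.38 to 0.50. Inhba, Tgfb1, Ltbp1, Tgfbr2 and Smad7 lie to the right of the band in all of these fits, while Tgfb2 and Smad3 approach 0 with library size only. The band is that of the TMM fit to all libraries. With library size only the median of all genes was 0.28, against 0.03 with TMM.

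The calls of Tgfb1, Inhba, Ltbp1, Tgfbr2 and Smad7 held in all 17 alternative fits tried under the same call rule. With a fold change over 2, 3 of the 10 genes were called, and Tgfbr2 and Smad7 were not among them. In 9 of the 10 genes, all but Tgfb3, the groups did not overlap, 7 with I/R above sham and 2 below, against 57.4% of all genes tested (29.3% above and 28.1% below). I/R replicate 1 had the highest level of the 3 I/R libraries in 5 of the 6 genes that rose, all but Acvr1, and in 2963 of 4054 (73.1%) of all genes called higher. The spread within I/R was widest for Inhba, with a coefficient of variation of 44.1%, followed by Ltbp1 (36.0%), Tgfb1 (34.4%) and Tgfbr2 (25.2%), and it was 12.3% for Smad7 and 13.4% for Acvr1. In sham it was 4.45% to 18.0% over the 10 genes.

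Levels were ordered per kilobase, with the lengths behind the deposited FPKM. In sham the order was Smad3 (74.9 ± 4.38 CPM per kilobase), Tgfb2 (35.6 ± 3.91), Acvr1 (16.3 ± 1.04), Smad7 (13.9 ± 0.618), Tgfbr1 (13 ± 0.626), Tgfbr2 (5.07 ± 0.538), Tgfb1 (4.90 ± 0.688), Tgfb3 (3.70 ± 0.665), Inhba (3.12 ± 0.247) and Ltbp1 (1.54 ± 0.144). Neighbours in this order whose libraries overlapped were Smad7 and Tgfbr1, Tgfbr2 and Tgfb1, Tgfb1 and Tgfb3, and Tgfb3 and Inhba. In I/R, Inhba moved from place 9 to place 5, at 18.6 ± 8.22 CPM per kilobase, and its libraries overlapped those of Acvr1 above it and Tgfb1 below it. With the listed lengths Inhba was in place 8 in sham and in place 2 in I/R. Smad3 was first in both groups with either length, but with the listed lengths its I/R libraries overlapped those of Inhba.

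Of 8 other ligand genes of the TGF-β family, 4 were tested, of which 1 was higher and 1 lower, a share called of 50% against 41.8% of all genes. Gdf15, a stress-induced distant member of the family, rose from 0.214 ± 0.0700 to 18.9 ± 8.01 CPM (log2 change 6.46 ± 0.41 SE, edgeR, adjusted p = 0.000212), with 6, 8 and 10 counts in sham and 1279, 582 and 557 in I/R. Inha, which encodes the inhibin α subunit, was lower, at 13 ± 1.67 CPM after I/R against 17.4 ± 0.363 CPM after sham surgery (-0.42, SE 0.13). Its call was lost in 9 of 17 alternatives, among them library size only, those without I/R replicate 2 or 3 and those without any of the sham replicates in turn (edgeR, adjusted p = 0.0722 to 0.0854 for sham). Inhbb, which encodes the other main activin subunit, did not pass, at 14.4 ± 6.90 CPM after I/R against 10.3 ± 1.10 CPM after sham surgery.

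The list of genes known to be induced by TGF-β had the highest median of the pathway lists, 1.34 on the log2 scale. Of its 18 genes, all tested, 14 were higher and 0 were lower, a share called of 77.8% against 41.8% of all genes. Of all genes tested, 21.8% were higher. Timp1, an inhibitor of matrix proteases, was at 79.1, 63.8 and 46.3 CPM after I/R against 0.538, 0.664 and 0.349 CPM after sham surgery (log2 change 6.90 ± 0.29 SE). Cyr61, a matrix-associated signalling protein, rose by 3.99 (SE 0.33) and Cdkn1a, a cell cycle inhibitor that is also a p53 target, by 3.65 (SE 0.23). Col1a2, Acta2, Snai2 and Cdkn2b did not pass. Genes of this list also respond to other signals, and their counts give no measure of TGF-β activity.

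Of 12 inhibitors of the pathway, 6 were higher and 0 were lower, a share called of 50% against 41.8% of all genes, with a median of 0.30. Tgif1, a nuclear co-repressor of Smads, was at 24.8, 11.5 and 11.4 CPM after I/R against 2.05, 2.07 and 1.71 CPM after sham surgery (log2 change 3.03 ± 0.34 SE). Pmepa1, which sequesters receptor-regulated Smads, rose by 1.55 (SE 0.21), with I/R replicate 2 the highest library at 111 CPM. Dcn, which encodes the TGF-β-binding proteoglycan decorin, rose by 0.94 (SE 0.20) and Bambi, a pseudoreceptor, by 0.48 (SE 0.17, edgeR, adjusted p = 0.0469), with Bambi losing its call in 9 of 17 alternatives. Dcn is also in the list of fibroblast markers, of which 3 of 6 were higher and 0 lower, where 21.8% and 19.9% of all genes were. The summed level of the fibroblast markers was 232 to 337 CPM after I/R against 206 to 384 CPM after sham surgery. Igf2 of this list, which did not pass, varied the most within sham, at 65.0, 148 and 216 CPM, and was at 76.1, 108 and 52.4 CPM after I/R. The activin-binding protein gene Fst and the Smad co-repressor genes Ski and Skil did not pass.

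In the BMP branch, 3 of 13 genes were higher and 1 was lower, a share of 30.8% called against 41.8% of all genes, and the median was -0.21. The higher genes were Id1, Id2 and Id3, early target genes of BMP receptors, with log2 fold changes of 1.70 (SE 0.26), 1.09 (SE 0.15) and 0.85 (SE 0.19). Nog, which encodes the BMP antagonist noggin, was lower, at 5.03 ± 1.91 CPM after I/R against 9.70 ± 1.29 CPM after sham surgery (-0.95, SE 0.28). It lost its call in 5 of 17 alternatives, among them library size only and those without I/R replicate 3 (edgeR, adjusted p = 0.0528), sham replicate 1 (0.0821) or sham replicate 2 (0.0888). The BMP ligands and receptors of the list did not pass. The median of this list was 0.05 with library size only, so its side of 0 depended on the scaling. Without I/R replicate 1, 3 of its genes were higher and 3 lower, where 4010 and 3966 of all 18739 genes tested were.

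**Figure D4:**
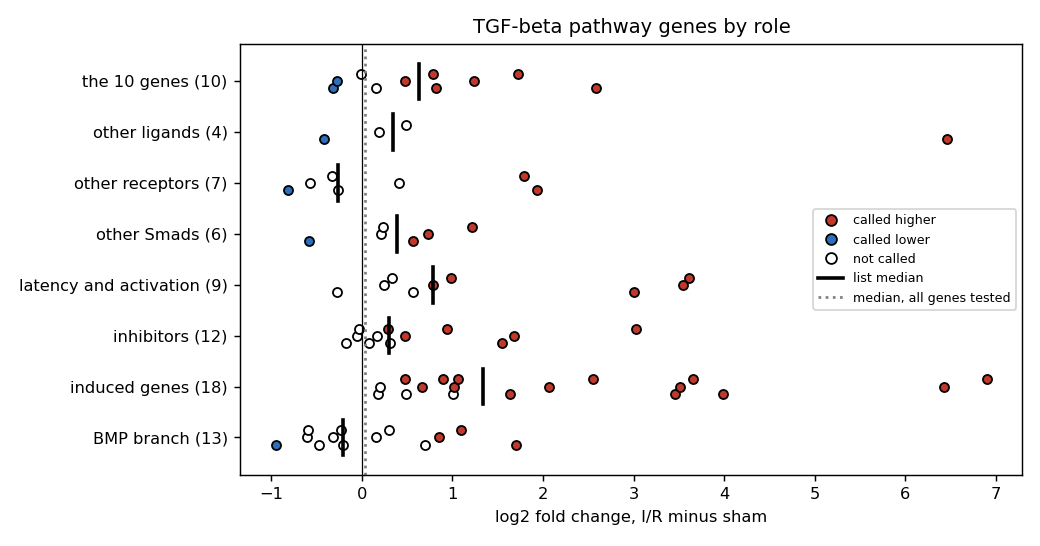
Log2 fold change of I/R against sham for each tested gene of the 10 genes and of 7 lists by role (number tested in brackets), red where called higher, blue where called lower and white where not called; thick lines are list medians and the dotted line the median of all genes tested, 0.03. The genes known to be induced by TGF-β and the latency genes have the highest medians, 1.34 and 0.78, the single ligand gene far to the right is Gdf15 (6.46), and the BMP branch has a median of -0.21.

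Cell type markers moved with the same libraries. Beside the marker counts that follow, 21.8% of all genes tested were higher and 19.9% were lower. Of 5 monocyte and macrophage markers tested, 4 were higher and 0 lower, with summed levels of 53.7, 28.3 and 32.8 CPM after I/R against 10.3, 13.2 and 12.7 CPM after sham surgery. The summed level of 6 neutrophil markers, of which 3 were tested and all 3 were higher, was 5.95 to 30 CPM in I/R, highest in replicate 1, and 0.349 to 1.49 CPM in sham, and Ngp, Camp and Ltf were at 0 in at least 1 library. Microglia markers moved both ways, with 3 of 6 higher and 2 lower, the lower ones being the resting-state genes P2ry12 and Tmem119. Astrocyte markers summed to 4280 to 4560 CPM after I/R against 4310 to 4660 CPM after sham surgery, with 2 of 6 higher and 3 lower. These similar sums hide opposite changes of abundant markers. Gfap rose, at 1720 to 2410 CPM after I/R against 375 to 435 CPM after sham surgery (log2 change 2.31, SE 0.17). Slc1a2 fell, at 1150 to 1830 CPM after I/R against 2930 to 3170 CPM after sham surgery (-0.96, SE 0.2). All 5 neuron markers tested were lower. For Tgfb1, Inhba, Ltbp1 and Tgfbr2, the library with the highest level was I/R replicate 1, which also had the most macrophage, neutrophil and endothelium marker reads and the fewest neuron marker reads. The part of cell composition in these results was not tested.

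**Figure D5:**
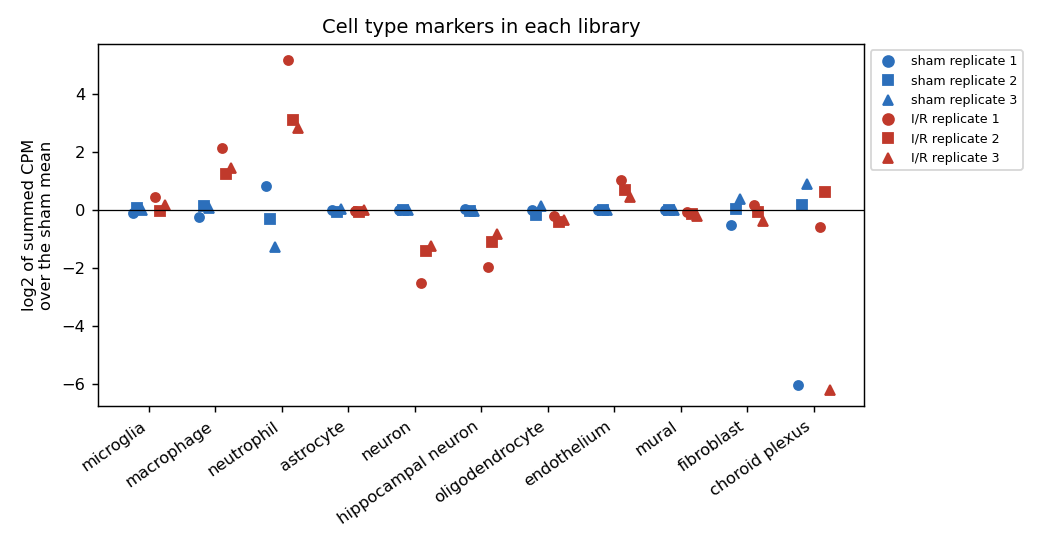
Summed CPM of each marker list in each library, as the log2 of its ratio to the sham mean, for sham (blue) and I/R (red), with marker shape giving the replicate number. Neuron markers are lower and macrophage, neutrophil and endothelium markers higher in all I/R libraries, most of all in I/R replicate 1, and choroid plexus markers are low in sham replicate 1 and I/R replicate 3 (36.4 and 32.6 CPM).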

How the data were processed

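RNA-seq libraries of mouse hippocampus, 3 I/R and 3 sham, were grouped by sample title. The authors aligned reads with TopHat2 to an Ensembl genome and counted reads per gene with HTSeq 0.6.1p2, and these deposited counts are raw; the submitters' processing notes name Bowtie 0.12.2 and the build mm8. Identifiers and coordinates in the table are of the BALB/cJ assembly although the mice were C57BL/6J. The deposited FPKM were computed by the authors from counts and a gene length that, in 74.9% of 12520 genes with at least 100 counts in every library, was shorter than the length listed in the table. The table's columns of the authors' own comparison (fold change and p-values) were not used. Of the data lines, 4 had been split, that of Tgfb1 among them, and were rejoined. Gdf11, Ly6c2 and Map2 were not analysed here, nor was Ltbp4, whose name was on more than 1 row.

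Differences were fitted on counts by edgeR 4.0.16 under R 4.3.3 (filterByExpr, TMM, robust quasi-likelihood F-test, no covariates), with Benjamini-Hochberg adjustment over 18569 genes. The fold change limit was that of the study's hippocampal plot, used with an adjusted p. The SE was the log2 fold change divided by the square root of F. Ratios within a library used counts plus 0.5 and exact permutation tests (scipy 1.17.1). No set test was run. The fit was tested on simulated counts. Replicates are pools, so p-values measure the spread between pools. The 10 genes and all lists were chosen with earlier results of these data known. Named genes were the 10 and, per pathway list, up to 4 called genes with the largest change, a mean of at least 1 CPM and groups that did not overlap; other genes named were chosen after their values were seen. A gene that the rule also named is not reported here. Alternatives were other scalings (DESeq2 1.42.0 size factors, upper quartile, library size only), filters and tests (DESeq2 Wald, limma 3.58.1). Others were call rules, a replicate block, a choroid plexus covariate and leaving out each library. Per gene, at most 17 fits were counted as alternatives, and the other call rules were not among them.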

Additional observations from a re-analysis of the deposited data

How the results depend on the processing

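Of 594 values of 35 named genes under alternatives, 531 kept their direction and their side of the threshold, 53 lost a call, 3 gained one and 7 changed sign. The 7 were all of Tgfb3, which was not called in any fit: its log2 fold change was -0.01, and 0.25 with library size only, 0.02 with the upper quartile, 0.02 with at least 10 counts in every library, 0.20 on FPKM plus 1, 0.25 on FPKM plus 0.1, and -0.14 to 0.12 when 1 library was left out. The count of the 10 genes called, 8, was 3 with a fold change over 2, which is a stricter rule, and 5 to 7 when 1 library was left out, lowest without sham replicate 1; fewer samples enter those fits. With a fold change over 2, 23 of the other pathway genes (38 before) and 2760 of all genes (7756 before) were called. Other pathway genes called were 30 to 44 when 1 library was left out, and 5330 to 7976 of all genes were called in those fits. The 5 ratios kept their direction throughout, which for the deposited FPKM follows from their being computed from the same counts. Libraries with the same replicate number were no more alike than others. Their deviations from the group mean correlated at -0.0967, 0.0556 and -0.184 for the numbers 1, 2 and 3. Between different numbers the correlation was -0.171 to 0.267, and these values cannot tell whether the design was paired. With a replicate block, 6 of the 10 genes, 34 other pathway genes and 6332 of all genes were called. Depth did not limit the 10 genes, which had 176 counts or more in every library.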

Other observations

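Of the genes of the pathway lists, 4 were below the filter on low counts. Nodal, a ligand of early development, was at 0.0740 ± 0.0674 CPM after I/R against 0.346 ± 0.0737 CPM after sham surgery (SD over 3 libraries per group). The activin subunit genes Inhbc and Inhbe were at 0 in at least 1 library, as was Itgb6, an epithelial integrin subunit, at 0.104 ± 0.0401 CPM after I/R against 0.0969 ± 0.168 CPM after sham surgery.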
